A study of Mus musculus with 10 samples.

Results

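The genes described here are 10 genes that mark basophils, mast cells, and eosinophils: *Cpa3*, *Ms4a2*, *Fcer1a*, *Gata2*, *Mcpt8*, *Prss34*, *Hdc*, *Prg2*, *Epx*, and *Cd200r3*. They were chosen by name from 51717 genes, and 9 of the 10 had enough reads for the test across 12381 genes. *Cd200r3* did not, and only its levels are given. Their expression was compared between granulocyte-macrophage progenitors (GMPs) with a recent deletion of *Mpc2*, which encodes a subunit of the mitochondrial pyruvate carrier, and WT GMPs. All cells came from C57Bl6/N males. In the mixed bone marrow chimeras used, donor cells carry CD45.2 and competitor and host cells carry CD45.1, and CD45.2+ GMPs were sorted from bone marrow after enrichment for CD27+ cells. The WT group (5 samples) was ROSA26 CreER+/-, and the recent KO group (5 samples) was Mpc2fl/fl; ROSA26 CreER+/-. Both groups therefore carried CreER, a Cre recombinase driven from the ROSA26 locus in all cell types and activated by tamoxifen, and both received tamoxifen chow for 2 wk up to collection. The floxed allele was the only labelled difference between the groups, but each recent KO sample pooled the cells of a pair of mice, whereas each WT sample came from 1 mouse. The age of the animals was not given in the sources used here.

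GMPs give rise mainly to neutrophils and monocytes, and basophils, mast cells, and eosinophils descend from rarer progenitors that overlap with the GMP gate. The transcription factor GATA2, often together with GATA1, maintains the basophil and mast cell programs, whereas C/EBP factors are needed for granulocyte programs, including that of eosinophils. Mature basophils and mast cells bear the high-affinity IgE receptor and store histamine and proteases, and eosinophils store cationic granule proteins. In a bulk sample, a change in the number of cells of 1 type and a change in RNA per cell cannot be told apart.

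The samples held 14033776 to 19745405 estimated reads. GMP markers were abundant in every sample, with a summed TPM of 10 markers (*Mpo*, *Elane*, and others) between 65000 and 85000 in WT samples and between 38500 and 70100 in recent KO samples. The most abundant were *Elane*, *Mpo*, and *Ctsg*. Of the 10 markers 0 passed the edgeR test, with 6 lower and 0 higher at an unadjusted p under 0.05. Over all tested genes 5.35% were lower and 4.89% higher in this way. The targeted gene, *Mpc2*, was at 61.0, 111, 95.2, 117, and 60.9 normalized CPM (reads scaled to a common library size by TMM factors) in WT replicates 1 to 5 and at 27.7, 17.1, 43.9, 37.0, and 35.0 CPM in recent KO replicates 1 to 5. All recent KO samples were below all WT samples (log2 fold change -1.46, SE 0.24, edgeR adjusted p = 0.0156). Without recent KO replicate 1 its adjusted p was 0.05, at the threshold. By Dixon's 95% critical value for 5 samples, recent KO replicate 2 lay apart from its group in *Prss34* but not in *Mcpt8*. In *Mcpt8* it was the lowest recent KO sample. The results of both genes are given with and without recent KO replicate 2.

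None of the 9 tested genes passed an adjusted p of 0.05 in edgeR's quasi-likelihood test (0 of 9), where 0.331% of all tested genes did, 0.121% with a higher and 0.21% with a lower level in recent KO GMPs. At an unadjusted p under 0.05 there were 5 of 9, against 10.2% of all tested genes: *Gata2* and *Mcpt8* had higher levels in recent KO GMPs (unadjusted and higher, 4.89% of all tested genes), and *Prss34*, *Prg2*, and *Epx* had lower levels (5.35% for lower). This count was not stable: it was 3 of 10 with DESeq2, 3 of 8 with limma, and 3 of 9 with the replicate number as a block. With 1 sample left out it was 3 to 6 (of 9 or 10 genes). Of the 9 genes, 4 had a positive and 5 a negative log2 fold change, and their median was -0.14, beside 0.00 over all tested genes. The sign of this median was not stable: it was 0.09 with DESeq2 or without the filter on low counts (10 genes), 0.14 with limma (8 genes), 0.03 without WT replicate 2 (9 genes), and 0.11, 0.23, 0.09, 0.23, and 0.24 without WT replicate 1, 3, or 5 or recent KO replicate 1 or 2 (10 genes each). For 0 of the 9 did the samples of the groups not overlap, which was the case for 2.43% of all tested genes (1.11% with recent KO higher). DESeq2 gave an adjusted p for all 10 genes and called 1 of them, *Mcpt8*, where it called 1.09% of 14360 genes. Within the groups, most pairs of these genes varied in the same direction from sample to sample, which was not compared with pairs of other genes. *Prg2* and *Epx* varied the most, and the basophil proteases *Mcpt8* and *Prss34* had fold changes of opposite sign.

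**Figure D1:**
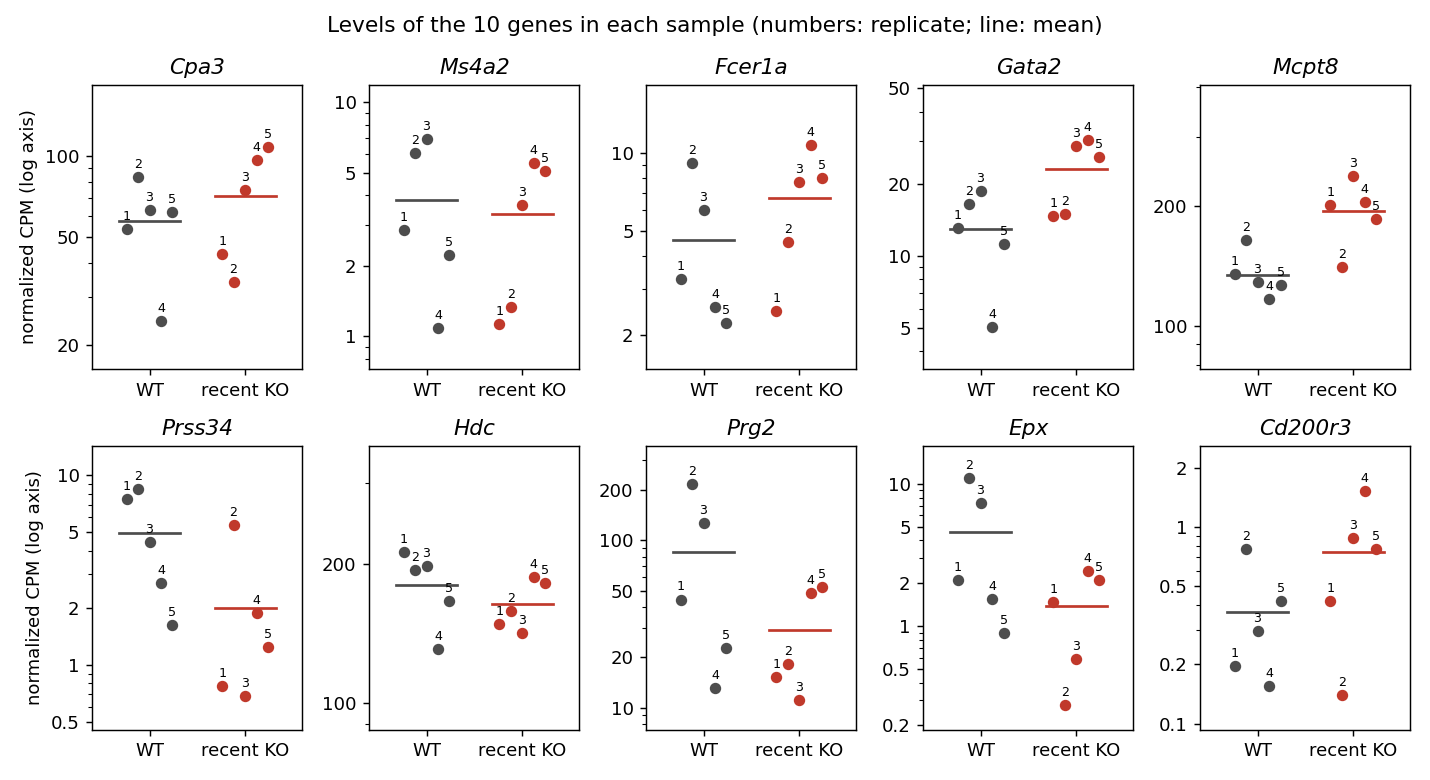
Normalized CPM (log axes) of each of the 10 genes in the 5 WT samples (grey) and 5 recent KO samples (red), with the replicate number at each point and a line at the group mean. The groups overlap for every gene, and WT replicate 4 is the lowest WT sample for 7 of the 10 genes.

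**Figure D2:**
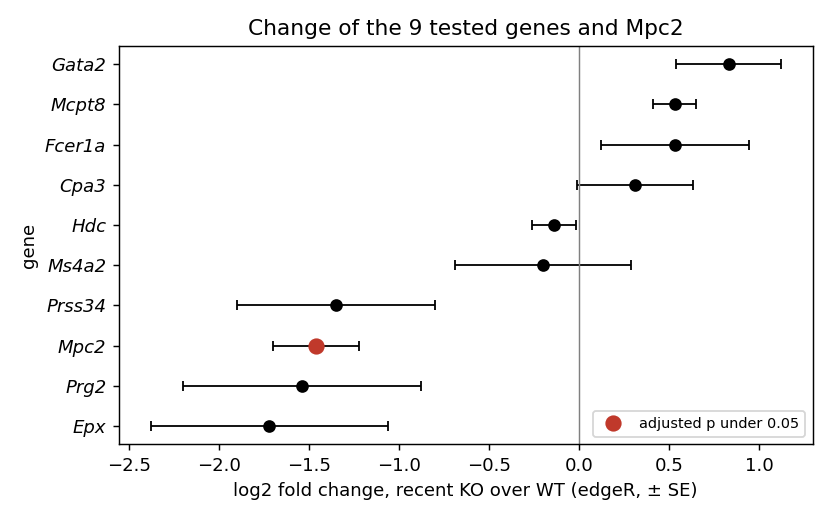
Log2 fold change between recent KO and WT samples (positive where recent KO is higher) with its standard error as bars, from edgeR, for the 9 tested genes and Mpc2. Only Mpc2 (larger marker) passes an adjusted p of 0.05, and among the 9 genes Mcpt8 and Hdc have the smallest errors (0.12 each).

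Levels of different genes were compared in TPM, which is scaled to transcript length. In WT GMPs the mean level ranged from *Mcpt8* (189 ± 31.5 TPM, SD, n = 5) through *Prg2* (119 ± 119), *Hdc* (66.5 ± 13.7), and *Cpa3* (38.2 ± 14.5) to a lower tier of *Fcer1a* (5.03 ± 3.08), *Prss34* (4.15 ± 2.61), *Gata2* (3.31 ± 1.27), *Ms4a2* (2.06 ± 1.13), and *Epx* (1.48 ± 1.29), with *Cd200r3* last (0.295 ± 0.185). Neighbors in this order overlapped in their sample ranges except *Cpa3* and *Fcer1a*, whose ranges were 15.1 to 55.2 and 2.52 to 9.86 TPM. In recent KO GMPs *Mcpt8* was again the most abundant (278 ± 46.8 TPM), and its lowest sample (220 TPM) was above every sample of the other genes. It was followed by *Hdc* (62.9 ± 9.03), *Cpa3* (49.5 ± 23.2), and *Prg2* (42.6 ± 29.0), and then by *Fcer1a* (7.62 ± 3.71), *Gata2* (6.10 ± 2.14), *Ms4a2* (2.03 ± 1.28), *Prss34* (1.77 ± 1.83), *Cd200r3* (0.643 ± 0.522), and *Epx* (0.515 ± 0.340). *Prg2* thus stood above *Hdc* and *Cpa3* by its mean in WT and below both in recent KO samples, though its ranges overlapped with theirs in both groups. Together the 10 genes summed to 238 to 688 TPM in WT and 351 to 539 in recent KO samples, with means of 429 and 452 (exact two-sided permutation test, p = 0.802). Of that sum, *Mcpt8* alone made up 33.3% to 71.1% in a sample.

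Single genes were then described in turn, beginning with the transcription factor gene *Gata2*. *Gata2* (chr6:88193891-88207032, plus strand, all gene positions in GRCm38) was at 13.1, 16.4, 18.6, 5.05, and 11.2 normalized CPM in WT replicates 1 to 5. In recent KO replicates 1 to 5 it was at 14.6, 15, 28.7, 30.4, and 25.9 CPM. Recent KO replicates 3 to 5 were above every WT sample, whereas replicates 1 and 2 lay within the WT range and WT replicate 4 was far below the rest of its group. The log2 fold change was 0.83 (SE 0.29, unadjusted p = 0.0122, edgeR adjusted p = 0.325). An exact permutation test of the CPM values gave an unadjusted p = 0.0635. Without the filter on low counts *Gata2* was called at the same fold change (adjusted p = 0.0174), in a setting that called 0.738% of 27909 genes.

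*Gata2* is transcribed from a pair of first exons, which start at 88193891 (Gata2-202) and at 88198334 (Gata2-201), and both transcripts were seen in every sample. Gata2-202 held 69.7% ± 10.5 of the TPM of the gene in WT and 60.7% ± 3.52 in recent KO samples (SD, n = 5 each). Gata2-201, from the start nearer to the coding exons, held 28.2% ± 10.4 and 39.1% ± 3.32. In TPM, Gata2-201 was at 0.906, 1.07, 1.96, 0.362, and 0.517 in WT replicates 1 to 5 and at 1.25, 1.5, 3.22, 3.53, and 2.70 in recent KO replicates 1 to 5. Its share differed by 10.9 percentage points, which did not pass the test (exact permutation test, p = 0.0635, adjusted over 9 transcript shares 0.429). Without WT replicate 3, the WT sample with the most Gata2-201, the difference was 15.1 points (exact permutation test, unadjusted p = 0.00794, the smallest such a comparison could give). Without any other single sample it ran from 8.11 points (without WT replicate 5) to 11.9 points (without recent KO replicate 1). The unadjusted p of the same test was then 0.0714 to 0.135.

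The high-affinity IgE receptor is built from FcεRIα, which binds IgE and is encoded by *Fcer1a*, FcεRIβ, a signal amplifier encoded by *Ms4a2*, and a shared γ chain encoded by *Fcer1g*. *Cpa3* encodes carboxypeptidase A3, a granule protease of mast cells and early basophils. The 250 bases upstream of the annotated starts of *Ms4a2*, *Fcer1a*, and *Cpa3* (RefSeq, GRCm38.p6) are shown with every GATA word in capitals. These 3 genes had positive correlations with *Gata2* over the samples. By Pearson's r only that of *Ms4a2* passed an exact permutation test adjusted over all pairs. By Spearman's rho that of *Fcer1a* passed as well (rho = 0.88, adjusted p = 0.0450). The correlations of *Hdc*, *Prg2*, *Mcpt8*, *Epx*, and *Prss34* with *Gata2* were positive too (r = 0.76, 0.74, 0.59, 0.58, and 0.13). Whether the words relate to these correlations was not tested. The words searched, on both strands, were AGATAA with its variant ending in G, which is AGATAG, and the same pair beginning with T, which are TGATAA and likewise TGATAG, and 26.5% of 32851 promoter windows of this length held at least 1.

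The windows are *Ms4a2* at chr19:11623720-11623969, *Fcer1a* at chr1:173227230-173227479, and *Cpa3* at chr3:20242182-20242431, all on the minus strand and written 5′ to 3′ along the gene.
Ms4a2: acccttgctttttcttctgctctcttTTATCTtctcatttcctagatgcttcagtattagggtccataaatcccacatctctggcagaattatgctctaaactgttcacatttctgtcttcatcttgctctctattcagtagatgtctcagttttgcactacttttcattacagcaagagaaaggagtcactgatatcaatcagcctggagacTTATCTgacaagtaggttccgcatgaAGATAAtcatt
Fcer1a: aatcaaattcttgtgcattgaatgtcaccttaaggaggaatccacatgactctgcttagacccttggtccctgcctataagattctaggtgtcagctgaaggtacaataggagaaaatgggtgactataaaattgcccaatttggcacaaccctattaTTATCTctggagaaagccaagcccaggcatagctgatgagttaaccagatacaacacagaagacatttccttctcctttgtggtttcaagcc
Cpa3: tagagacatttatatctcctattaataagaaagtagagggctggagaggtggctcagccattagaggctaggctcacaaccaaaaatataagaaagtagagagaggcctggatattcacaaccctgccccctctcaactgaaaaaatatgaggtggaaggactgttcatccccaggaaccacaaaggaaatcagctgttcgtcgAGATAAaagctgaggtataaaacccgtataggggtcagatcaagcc

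The *Ms4a2* window held 3 such words, at 11, 37, and 224 bases before the start (counted to the far end of the word), and those of *Fcer1a* and *Cpa3* held 1 each, at 92 and 46 bases. A window was found for 9 of the 10 genes (10 windows, a pair of them for *Gata2*), and 6 of the 10 windows held a GATA word, those of *Ms4a2*, *Fcer1a*, *Cpa3*, *Prss34*, *Hdc*, and *Cd200r3*. The windows of *Gata2*, *Mcpt8*, and *Epx* held none, which says only that these letters are not there. The *Hdc* window (chr2:126618679-126618928) is upstream of Hdc-201 but lies within the gene as annotated, since Hdc-205 starts at 126619299. A window of *Gata2* (chr6:88198414-88198663) also lies within its gene. A C/EBP word (TTGCNNAA, where N is any base) was in 2 of the 10 windows, those of *Fcer1a* and *Cd200r3*, and in 9.56% of all windows.

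*Fcer1a* (chr1:173221284-173227214) was at 3.28, 9.10, 6.0, 2.56, and 2.22 CPM in WT replicates 1 to 5 and at 2.46, 4.55, 7.72, 10.7, and 7.99 CPM in recent KO replicates 1 to 5. The recent KO samples covered most of the WT range, and 1 of them, replicate 4, exceeded it. Its log2 fold change was 0.53 (SE 0.41, adjusted p = 0.732), and with 1 sample left out it ran from 0.30 without recent KO replicate 4 to 0.93 without WT replicate 2.

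*Ms4a2* (chr19:11615523-11623719) was at 2.84, 6.05, 6.95, 1.09, and 2.22 CPM in WT replicates 1 to 5 and at 1.13, 1.33, 3.62, 5.48, and 5.05 CPM in recent KO replicates 1 to 5. It differed 6.38-fold between the highest and lowest WT sample and 4.87-fold between those of recent KO, and all 5 recent KO samples lay within the WT range. The log2 fold change of -0.20 (SE 0.49, adjusted p = 0.934) had no settled sign and was -0.01 without recent KO replicate 2, 0.01 without recent KO replicate 1, 0.03 without WT replicate 2, and 0.12 without WT replicate 3. Both receptor chains together were at 3.39 to 13.2 TPM in WT and 3.11 to 15.2 in recent KO samples (means 7.08 and 9.65, exact permutation test, p = 0.381), and the difference of 2.57 TPM ran from 1.17 without recent KO replicate 4 to 4.21 without recent KO replicate 1. The shared chain *Fcer1g*, which GMPs and their other progeny also express, was far higher at 531 ± 56.7 TPM in WT and 464 ± 63.1 in recent KO samples (SD, n = 5 each) and did not pass the test (adjusted p = 0.424).

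*Cpa3* (chr3:20215620-20242181) was at 53.5, 83.9, 63.1, 24.4, and 62.0 CPM in WT replicates 1 to 5. In recent KO replicates 1 to 5 it was at 43.2, 34.1, 74.6, 96.6, and 108 CPM. The same 3 recent KO samples, replicates 3 to 5, were high for *Cpa3*, *Gata2*, *Ms4a2*, and *Fcer1a*, and replicates 1 and 2 were low for all 4 genes. The log2 fold change of *Cpa3* was 0.31 (SE 0.32, adjusted p = 0.818), and with 1 sample left out it ran from 0.11 without recent KO replicate 5 and 0.12 without WT replicate 4 to 0.49 without WT replicate 2 or recent KO replicate 2.

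The proteases *Mcpt8* and *Prss34*, which encode the basophil granule enzymes mMCP-8 and mMCP-11, and *Hdc*, which encodes histidine decarboxylase, the enzyme that makes histamine, were described next. The 250 bases upstream of annotated starts of *Mcpt8* (chr14:56085198-56085447, minus strand) and *Prss34* (chr17:25298144-25298393, plus strand) are shown in the same way, since these genes of 1 cell type had fold changes of opposite sign. The *Mcpt8* window is upstream of Mcpt8-201, which starts at 56085197. Its 3′ end lies within the gene as annotated, since Mcpt8-202 starts at 56085273.
Mcpt8: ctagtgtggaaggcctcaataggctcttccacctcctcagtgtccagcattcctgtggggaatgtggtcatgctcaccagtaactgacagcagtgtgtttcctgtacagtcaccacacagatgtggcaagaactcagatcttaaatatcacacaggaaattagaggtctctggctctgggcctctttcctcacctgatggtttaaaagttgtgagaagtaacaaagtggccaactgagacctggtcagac
Prss34: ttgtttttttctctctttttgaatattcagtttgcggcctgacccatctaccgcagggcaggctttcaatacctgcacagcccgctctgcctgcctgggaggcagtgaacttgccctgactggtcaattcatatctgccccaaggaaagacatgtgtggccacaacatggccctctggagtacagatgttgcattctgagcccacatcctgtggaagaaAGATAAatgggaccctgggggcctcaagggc

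Only the *Prss34* window held a GATA word, 31 bases before its start. *Mcpt8* (chr14:56082166-56085273) was at 135, 165, 129, 117, and 127 CPM in WT replicates 1 to 5. It was at 202, 141, 238, 205, and 186 CPM in recent KO replicates 1 to 5. Every recent KO sample except replicate 2 was above every WT sample. The means were 135 ± 18.3 and 194 ± 35.3 CPM (SD, n = 5 each), a log2 fold change of 0.53 (SE 0.12, unadjusted p = 7.24e-04, edgeR adjusted p = 0.112). This was the smallest unadjusted p of the 9 genes. The exact permutation test of the CPM values gave an unadjusted p = 0.0159, which was 1 of 10 such tests (1 per gene) and is given without adjustment over them. *Mcpt8* passed in DESeq2 (log2 fold change 0.53, adjusted p = 0.00419), in edgeR without the filter on low counts (adjusted p = 0.00109), and in edgeR without recent KO replicate 2 (0.62, SE 0.10, adjusted p = 0.00933). That fit called 0.718% of 12666 genes. It left out the only recent KO sample within the WT range, so that the groups could no longer overlap. With any other single sample left out, *Mcpt8* did not pass (edgeR adjusted p = 0.067 to 0.300).

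*Prss34* (chr17:25298394-25300165) was at 7.54, 8.43, 4.45, 2.72, and 1.62 CPM in WT replicates 1 to 5 and at 0.773, 5.45, 0.684, 1.89, and 1.24 CPM in recent KO replicates 1 to 5. Here recent KO replicate 2 was the highest of its group, and 3 of the other recent KO samples lay below every WT sample. The log2 fold change was -1.35 (SE 0.55, unadjusted p = 0.0287, adjusted p = 0.421), and without recent KO replicate 2 it was -2.12 (SE 0.48, adjusted p = 0.0694). The ratio of *Mcpt8* to *Prss34* in TPM was 31.1 to 131 in WT samples. In recent KO samples it was 44.5 in replicate 2 and 181 to 578 in the other 4.

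*Hdc* (chr2:126593667-126619299) was at 213, 194, 198, 131, and 166 CPM in WT replicates 1 to 5 and at 148, 158, 142, 188, and 182 CPM in recent KO replicates 1 to 5. It was among the steadiest of the genes, with all recent KO samples inside the WT range, and its log2 fold change was -0.14 (SE 0.12, adjusted p = 0.762). Of the annotated *Mcpt8* transcripts, Mcpt8-201 held 89.3% ± 0.746 of the *Mcpt8* TPM in WT and 90.3% ± 1.36 in recent KO samples (exact permutation test, p = 0.19).

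The eosinophil granule genes had the widest spread. *Prg2* encodes major basic protein and *Epx* eosinophil peroxidase. *Prg2* (chr2:84980461-84983632) was at 44.3, 216, 127, 13.2, and 22.6 CPM in WT replicates 1 to 5. In recent KO replicates 1 to 5 it was at 15.3, 18.2, 11.1, 48.2, and 52.4 CPM. WT replicates 2 and 3 were above all recent KO samples, and the remaining WT samples were within the recent KO range, so that the WT group itself differed 16.3-fold from lowest to highest. The log2 fold change was -1.54 (SE 0.66, unadjusted p = 0.0352, adjusted p = 0.440), and without WT replicate 2 it was -0.83.

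*Epx* (chr11:87864000-87875536) was at 2.10, 10.9, 7.30, 1.55, and 0.898 CPM in WT replicates 1 to 5 and at 1.48, 0.280, 0.586, 2.44, and 2.11 CPM in recent KO replicates 1 to 5. The same WT samples, replicates 2 and 3, stood above all others. Its log2 fold change was -1.72 (SE 0.66, unadjusted p = 0.0206, adjusted p = 0.387), the largest in size of the 9 genes, at 4 to 196 estimated reads per sample, and without WT replicate 2 it was -1.10. Both genes passed only without the filter on low counts (adjusted p = 0.0403 for *Prg2* and 0.0379 for *Epx*). Both genes together were at 17.9 to 307 TPM in WT and 16.7 to 77.5 in recent KO samples, with means of 120 and 43.1 (exact permutation test, p = 0.214). The difference of -77.2 TPM was -30.5 TPM without WT replicate 2 (exact permutation test, p = 0.484).

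*Cd200r3*, which encodes an activating receptor of basophils and mast cells, was at 0.155 to 0.776 CPM in WT and at 0.140 to 1.52 CPM in recent KO samples, which is 2 to 25 estimated reads. In the lowest samples this was near or below the 0.147 to 0.233 CPM that 3 reads represent, a limit that covers counting error only. Its transcripts also shared a stretch of at least 100 bases at 85% identity or more with transcripts of 213 other genes, so its few reads are uncertain, whereas the other 9 genes shared no such stretch with any other gene.

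The question of how far these genes agree between replicates was addressed by the deviation of each sample from the mean of its group in log2 CPM, which removes the difference between WT and recent KO. The typical tested gene had a within-group SD of 0.19 on this scale, and 90% of genes were below 0.55. Of the 9 genes, 7 were above 0.55, and *Prg2* (1.38) and *Epx* (1.31) were above 1.24, the level that 99% of genes did not reach. *Mcpt8* and *Hdc* were at 0.24 each. The samples that were high or low recurred: WT replicate 2 was the highest WT sample for 7 of the 10 genes and WT replicate 4 the lowest for 7, and recent KO replicate 4 was the highest of its group for 6.

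**Figure D3:**
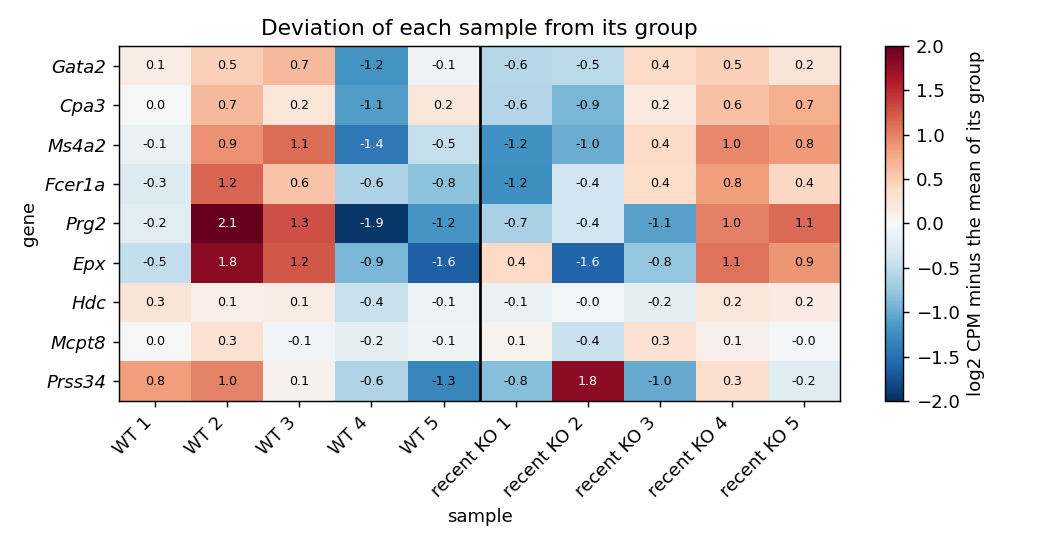
Deviation of each sample (columns) from its group mean in log2 CPM for the 9 tested genes (rows), red for above and blue for below. WT replicates 2 and 3 and recent KO replicates 4 and 5 are red for most genes, and Prss34 in recent KO replicate 2 goes against its column.

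Over the 10 samples, 34 of the 36 pairs of genes had a positive Pearson correlation of these deviations, with a median r of 0.62. The values of a pair come from the same libraries and share their depth and scaling. The counts of positive and passing pairs were not computed for other tested genes, so they cannot be read as particular to these genes. An exact permutation test over all pairings within groups (two-sided, smallest possible p 6.94e-05) gave an unadjusted p under 0.05 for 17 pairs and an adjusted p under 0.05 over the 36 pairs for 3. These were *Ms4a2* with *Gata2* (r = 0.94, exact p = 6.25e-04, adjusted 0.0225), *Ms4a2* with *Cpa3* (r = 0.91, exact p = 0.00229, adjusted 0.0275), and *Ms4a2* with *Fcer1a* (r = 0.90, exact p = 0.00194, adjusted 0.0275). By Spearman's rho these pairs had 0.99 (exact p = 2.78e-04, adjusted 0.0100), 0.83 (exact p = 0.00896, adjusted 0.0750), and 0.89 (exact p = 0.00326, adjusted 0.0450), and *Fcer1a* with *Gata2* also passed (rho = 0.88, exact p = 0.00375, adjusted 0.0450; r = 0.78, exact p = 0.0133, adjusted 0.0597). *Cpa3* with *Gata2* (r = 0.90, exact p = 0.00722, adjusted 0.0597) and *Cpa3* with *Fcer1a* (r = 0.72, exact p = 0.0290, adjusted 0.0852) did not pass.

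Leaving out the 2 samples farthest from the median of the first gene gave r of 0.94 for *Ms4a2* with *Gata2*, 0.85 for *Cpa3* with *Ms4a2*, and 0.87 for *Ms4a2* with *Fcer1a*, and no pair then passed the adjusted test (0 of 36). Leaving out each sample in turn kept the r of these pairs between 0.86 and 0.97, but 0 pairs passed without WT replicate 1, WT replicate 2, recent KO replicate 2, or recent KO replicate 4, 1 passed without recent KO replicate 5, and 10 passed without recent KO replicate 3. Within the groups, *Ms4a2* and *Gata2* correlated at 0.95 in the 5 WT and 0.96 in the 5 recent KO samples, given as a description.

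The eosinophil granule genes correlated with each other (r = 0.86, exact p = 0.00951, adjusted 0.0597; rho = 0.87, exact p = 0.0125, adjusted 0.0750) without passing the adjusted test, and their r was 0.83 without the 2 farthest samples. Their r with the IgE receptor chains was 0.82 for *Ms4a2* with *Prg2* and 0.79 for *Fcer1a* with *Prg2*, which passed only before adjustment (exact p = 0.0113 and 0.0152, adjusted 0.0597 and 0.0608) and were 0.76 and 0.78 without the 2 farthest samples. With *Epx* it was lower, at 0.71 for *Ms4a2* and 0.68 for *Fcer1a* (exact p = 0.0373 and 0.0492, adjusted 0.0895 and 0.104), the latter with 0.99 in the 5 WT and 0.29 in the 5 recent KO samples as a description. Only 2 pairs had a negative r, and both held *Prss34*: *Mcpt8* with *Prss34* at -0.30 (exact p = 0.446, adjusted 0.518; rho = -0.08, exact p = 0.847, adjusted 0.847) and *Cpa3* with *Prss34* at -0.05 (exact p = 0.889, adjusted 0.889; rho = 0.09, exact p = 0.822, adjusted 0.846). The r of *Mcpt8* with *Prss34* was 0.73 in the 5 WT samples and -0.90 in the 5 recent KO samples, given as a description. Over all samples but recent KO replicate 2 it was 0.39, and without the 2 farthest samples it was 0.62, so that its sign rested on that sample.

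**Figure D4:**
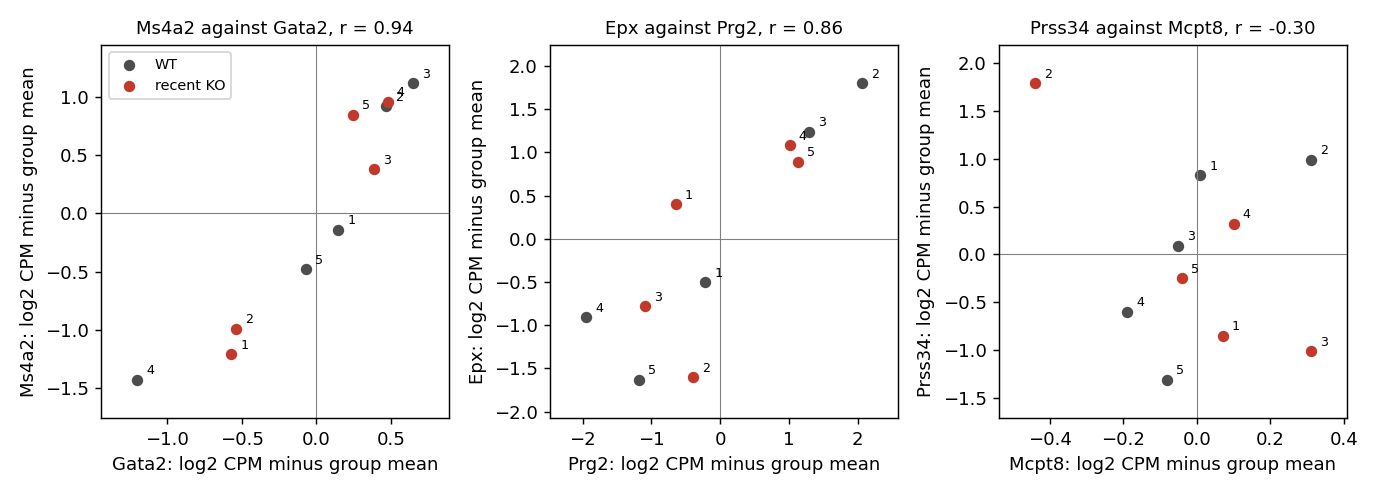
Deviations from the group mean (log2 CPM) of 3 pairs of genes in the 5 WT (grey) and 5 recent KO (red) samples, numbered by replicate. Ms4a2 follows Gata2 (r = 0.94) and Epx follows Prg2 (r = 0.86), whereas Prss34 against Mcpt8 (r = -0.30) has recent KO replicate 2 in the upper left corner.

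The mean standardized deviation of the 9 genes was taken as a common profile, and the 10 tested genes most like it that were not among them were *Mfsd2b*, *Slc45a3*, and *Camkmt* (r = 0.95 each), *Gata1* (0.94), *Zfp219* (0.93), *Gm4924* and *Smim5* (0.92 each), and *E2f8*, *Mbtd1*, and *Prg3* (0.91 each), over 10 samples. These r are a description, and none of the 10 genes was called between recent KO and WT (adjusted p of 0.16 or more). *Gata1* encodes the other GATA factor of the mast cell, basophil, eosinophil, and erythroid lineages, and it was at 4.80, 6.77, 7.01, 1.79, and 3.29 CPM in WT replicates 1 to 5 and at 3.66, 3.36, 8.60, 12.7, and 9.28 CPM in recent KO replicates 1 to 5 (log2 fold change 0.66, SE 0.39, adjusted p = 0.602, or 0.40 without recent KO replicate 4). *Prg3* encodes the homolog of major basic protein, neighbors *Prg2* (chr2:84988215-84993886, plus strand), and was the gene most like the mean profile of *Prg2* and *Epx* (r = 0.98). It was at 13.3, 27.5, 20.5, 6.76, and 5.87 CPM in WT replicates 1 to 5 and at 7.73, 4.97, 5.62, 15, and 12.2 CPM in recent KO replicates 1 to 5 (log2 fold change -0.70, SE 0.41, adjusted p = 0.601), and without WT replicate 2, the WT sample with the highest *Prg2*, *Epx*, and *Prg3*, the log2 fold change was -0.35.

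Other genes of the same programs were taken from lists. Beside their counts before adjustment, 4.89% of all tested genes were higher and 5.35% lower at an unadjusted p under 0.05. In edgeR, 0 of 18 transcription factors passed the adjusted test, with 3 higher and 6 lower at an unadjusted p under 0.05 and a median log2 fold change of -0.04. The most abundant were *Lmo2*, *Spi1* (PU.1), and *Xbp1*, at 213 ± 27.5, 206 ± 11.6, and 80.9 ± 13.6 TPM in WT and at 245 ± 50, 187 ± 16.1, and 64.4 ± 8.50 TPM in recent KO samples (SD, n = 5). Of the 10 tested cytokine receptors 0 passed (1 higher and 1 lower before adjustment, median 0.06), and their most abundant, *Ifngr1*, *Csf2ra*, and *Crlf2*, had log2 fold changes of -0.21, -0.41, and 0.15. Of the 19 tested genes of Fcε receptor signaling 0 passed (2 higher and 1 lower before adjustment, median 0.01), and next to *Fcer1g* the most abundant were the phosphatase gene *Ptpn6* (log2 fold change -0.14) and the adaptor gene *Grb2* (-0.06).

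Among the 12 tested further basophil genes 0 passed (2 higher and 1 lower before adjustment, median 0.26), led in abundance by *Ifitm1*, *Ccl9*, and *Cd69* with log2 fold changes of 0.27, 0.19, and -0.23. The basophil cytokine gene *Il13* was at 0 in all 10 samples. Among the 9 tested further eosinophil genes 0 passed (3 higher and 0 lower before adjustment, median -0.16), led by *Serpinb1a* and *Ltb4r1*, which are also neutrophil genes (log2 fold changes -0.16 and -0.38), and *Prg3*. Of the 11 tested genes of mediator synthesis and storage 1 passed (3 higher and 1 lower before adjustment, median 0.09). This was *Ltc4s*, which encodes leukotriene C4 synthase, the enzyme that makes the cysteinyl leukotrienes of mast cells, basophils, and eosinophils.

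*Ltc4s* was at 1.42, 1.66, 1.42, 1.4, and 1.08 CPM in WT replicates 1 to 5 and at 2.25, 2.73, 3.67, 4.69, and 3.92 CPM in recent KO replicates 1 to 5. All 5 recent KO samples were above all WT samples, and the log2 fold change was 1.30 (SE 0.24, edgeR adjusted p = 0.0318). The level was low, with 18 to 77 estimated reads per sample. The fold change stayed between 1.17 and 1.42 when 1 sample was left out, but the adjusted p was 0.0562 to 0.104 without any of the 5 WT samples or recent KO replicates 3, 4, or 5. It was 0.179 with the replicate number as a block. The vesicular monoamine transporter *Slc18a2*, which loads histamine into granules, was at 5.46 ± 1.48 CPM in WT and 9.36 ± 2.60 in recent KO samples (SD, n = 5 each) and did not pass (log2 fold change 0.77, SE 0.22, adjusted p = 0.214). The most abundant genes of this list, *Srgn* (proteoglycan core), *Lta4h*, and *Alox5ap* (leukotriene synthesis), had log2 fold changes of -0.26, -0.41, and -0.08 and did not pass (adjusted p = 0.595, 0.262, and 0.765).

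Of the 15 listed further mast cell genes 5 could be tested and 0 passed (0 before adjustment, median -0.03). Of these 5, 2 had a positive and 3 a negative log2 fold change. *Mcpt1* and *Mrgprb1* were at 0 in all 10 samples, and *Cd63*, *Slc29a1*, and *Cma1* were the most abundant, of which *Cd63* and *Slc29a1* are also expressed outside mast cells. *Cma1*, a mast cell chymase, was at 0.343 to 3.33 CPM in WT samples and at 0, 0.280, 9.14, 2.25, and 8.56 CPM in recent KO replicates 1 to 5 (log2 fold change 1.64, SE 0.87, adjusted p = 0.551). Further mast cell proteases were looked at after their values were seen. *Gzmb* was at 0.599 to 4.83 CPM in WT samples and at 0.211, 0.629, 2.64, 3.29, and 4.69 CPM in recent KO replicates 1 to 5, so that no recent KO sample exceeded the highest WT sample. *Tpsb2* was at 0 to 1.92 CPM in WT samples and at 0, 0, 13.3, 0.852, and 4.64 CPM in recent KO replicates 1 to 5, and *Mcpt4* was at 0 in all samples except recent KO replicates 3 and 5, where it was at 1.76 and 1.80 CPM. These samples were 2 of the 3 recent KO samples that were high for *Gata2*, *Cpa3*, and *Ms4a2*. *Mcpt8* was highest in recent KO replicate 3.

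Markers of other cells also differed between samples. The 12 megakaryocyte and erythroid markers, led by *Hba-a1*, *Car2*, and *Hbb-bt*, summed to 43.3 to 84.7 TPM in WT samples and to 75.8, 74.5, 262, 226, and 172 in recent KO replicates 1 to 5, so that it was high in the samples that were high for *Gata2*, *Cpa3*, *Ms4a2*, and *Fcer1a*. Of the 9 tested markers 0 passed (6 higher before adjustment, median log2 fold change 0.91), none of the 12 was at 0 in all samples, and 2 of them, *Gata1* and *Itga2b*, are also genes of the lists above. Within the groups, the tested markers had r of 0.19 to 0.94 (*Gata1*) with the common profile of the 9 described genes, as a description. The 7 macrophage markers summed to 9.46 to 20.1 TPM in WT and 23.7 to 46.0 in recent KO samples, and *C1qa*, *C1qb*, and *C1qc*, subunits of complement C1q, passed (log2 fold changes 1.25, 1.35, and 1.59, edgeR adjusted p = 0.0406, 0.0160, and 0.0383). With 1 sample left out, their adjusted p reached 0.130, 0.0695, and 0.122, each of these without WT replicate 3, and all 3 calls were also lost without WT replicate 2, WT replicate 4, or recent KO replicate 3. The calls of *C1qa* and *C1qc* were further lost without WT replicate 1, recent KO replicate 1, or recent KO replicate 4. Within the groups the C1q genes ran against the common profile of the 9 genes, with r of -0.33, -0.61, and -0.77 over the 10 samples as a description.

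The 8 mature neutrophil markers, led by *Ngp*, *Camp*, and *Retnlg*, summed to 20.5 to 80.8 TPM in WT samples and 93.0, 298, 27.5, 77.4, and 165 in recent KO replicates 1 to 5, highest in recent KO replicate 2, the sample with the lowest *Mcpt8* and highest *Prss34* of its group (0 of 7 tested passed, 5 higher before adjustment). The 6 stem and multipotent progenitor markers (*Hoxa9*, *Ly6a*, *Meis1*, and others) summed to 29.8 to 38.3 TPM in WT and 37.6 to 46.3 in recent KO samples. The sums of 4 monocyte markers, mostly *Ly6c2*, were 3590 to 4950 and 1060 to 5170, of 4 dendritic cell markers, mostly *Flt3*, 2.37 to 3.76 and 3.95 to 9.26, and of 8 lymphoid markers, almost all of it *Nkg7*, 3210 to 4040 and 2780 to 3400. In these last 4 lists 0 genes passed. Before adjustment, 2 of 6 tested stem and multipotent progenitor markers and 1 of 1 dendritic cell marker were higher. Of the 4 monocyte markers 2 were lower, and the 1 tested lymphoid marker was neither. Over all tested genes 4.89% were higher and 5.35% lower in this way. The part of these markers in the levels of the 10 genes was not tested.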

How the data were processed

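RNA-seq of CD45.2+ GMPs from 5 WT and 5 recent *Mpc2* KO samples was analyzed, with groups and replicate numbers from the sample labels. The authors made SMARTseq V4 libraries, which do not keep the strand, sequenced paired-end reads, and mapped them to Gencode M27 transcripts (GRCm39) with Salmon (1.5.1 in the submitters' processing notes). The files they deposited hold, for each transcript, the raw estimated count and the TPM, which Salmon scales by transcript length and library. A deposited table of the authors' own DESeq2 comparison (fold changes and p-values, version 2.11.40.6 in the notes) was not used.

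Transcripts were matched by Ensembl identifier to Gencode M21 (GRCm38), whose coordinates are given. 137161 of 140789 (97.4%) matched, and unmatched transcripts held 0.348% to 0.390% of reads. Estimated counts were summed per gene and rounded, and TPM was summed per gene. edgeR 4.0.16 (limma 3.58.1, R 4.3.3) was run on 12381 genes kept by filterByExpr (minimum count 10), with TMM scaling, a quasi-likelihood test, and Benjamini-Hochberg adjustment over all genes at 0.05. Its scripts were tested on simulated data. Single values were compared by exact permutation of 5 samples against 5 (smallest p 0.00794). Correlations used log2 CPM with a prior count of 2, minus the group mean. Sequences are from RefSeq, and shared stretches were found with BLAST 2.17.0. Python 3.11.15, numpy 2.4.6, and pandas 2.3.3 were used.

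Between replicates, chi-square per gene was 6.71 to 46.5, well above sampling noise, so no pair was taken for 1 library. The labels call the samples biological replicates. The 10 genes and the lists were chosen with earlier results of these data known. Named from each list were genes that passed, the 3 with the highest mean TPM, and the 10 genes most like the common profile. Genes named outside this rule (*Gzmb*, *Tpsb2*, *Mcpt4*, *Slc18a2*, *Itga2b*, and *Mcpt1*, *Mrgprb1*, and *Il13* as being at 0) were picked after their values were seen, as was the profile of *Prg2* with *Epx*. Alternatives were RLE and upper quartile factors, no filter or a mean count of at least 50, DESeq2 1.42.0, the replicate number as a block, limma on log2 TPM with a pseudocount of 1 or 0.1 (genes at a mean TPM of 1 or more), and leaving out each sample.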

Additional observations from a re-analysis of the deposited data

Results flagged for a closer look

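*Prss34* in recent KO replicate 2, at 5.45 normalized CPM (78 estimated reads), lay far from the other recent KO samples, which were at 0.684 to 1.89 CPM. Its gap to the next sample was above 0.71 of the range of the group, which is Dixon's 95% critical value for 5 samples. This was 1 of 22 groups looked at (11 genes including *Mpc2*, in WT and recent KO), where chance alone flags about 1 in 20, or 1.1 groups. The same library had the lowest *Mcpt8* (141 CPM), *Epx* (0.280 CPM), *Cpa3* (34.1 CPM), *Cd200r3* (0.140 CPM), and *Mpc2* (17.1 CPM) of the recent KO samples. Without it, *Mcpt8* passed the edgeR adjusted test, in a setting that called 0.718% of all tested genes, against 0.331% with all samples. In TPM, 4 of the 10 genes (*Gata2*, *Mcpt8*, *Prss34*, and *Cd200r3*) then had an unadjusted exact permutation p under 0.05, where 1 (*Mcpt8*) did with all samples. The share of all genes with such a p was not computed, so this rise cannot be read as particular to these genes.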

How the results depend on the processing

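The count of the 10 genes that passed was 0 with RLE or upper quartile factors, a mean count of at least 50, the replicate block, and limma on either TPM scale, 1 with DESeq2 (*Mcpt8*), 4 without the filter on low counts (*Gata2*, *Mcpt8*, *Prg2*, and *Epx*), and 0 to 1 with 1 sample left out (1 without recent KO replicate 2). The count over all genes was 41 in the edgeR fit, 40 with RLE and 43 with upper quartile factors, 156 with DESeq2, 206 without the filter, 20 with the replicate block, 25 and 24 by limma on log2 TPM at a pseudocount of 1 and of 0.1, and 25 to 91 with 1 sample left out: 91 without recent KO replicate 2, 25 without recent KO replicate 3 or 4, and 26 without WT replicate 3. Replicate numbers did not pair the samples: same-numbered samples correlated at -0.18 to 0.06 in their deviations, and 0 of 10 samples correlated best with its own number, so the block was an alternative only. With the block *Mpc2* (adjusted p = 0.0577), *Ltc4s* (0.179), *C1qa* (0.159), *C1qb* (0.110), and *C1qc* (0.180) did not pass, and by limma *Mpc2* (0.130 and 0.138), *C1qa* (0.0642 and 0.0605), and *C1qc* (0.0552 and 0.0555) did not. The log2 fold change of *Ms4a2* ran from -0.44 to 0.12 with 1 sample left out and turned positive without recent KO replicate 1 (0.01), WT replicate 2 (0.03), or WT replicate 3 (0.12). Of the calls, 36.6% were higher in the edgeR fit, 53.4% without the filter (110 higher and 96 lower, so that the majority turned), 49.4% with DESeq2 (77 and 79), 44.2% with upper quartile factors, 33.3% at a mean count of at least 50, and 20% with the replicate block (4 and 16). Of the 10 genes, the number with an unadjusted permutation p under 0.05 in TPM was 1 (*Mcpt8*), 1 in CPM, and 1 to 4 with 1 sample left out (2 without recent KO replicate 1). The share of all genes with such a p was not computed. The recent KO minus WT difference in the summed TPM of all 10 genes, 23.1, ran from -24.7 to 87.9 with 1 sample left out and was -24.7 without WT replicate 4 and -0.564 without WT replicate 5. The number of pairs that passed was 3, 0 without the 2 farthest samples, 4 in log2(TPM + 0.1), 3 among genes with a mean of at least 50 reads, and 0 to 10 with 1 sample left out. The correlation of *Mcpt8* with *Prss34* was 0.62 without the 2 farthest samples and -0.62 to 0.39 with 1 sample left out (0.39 without recent KO replicate 2). The cause of these differences was not tested. Limma tested 8 of the 10 genes, since *Epx* and *Cd200r3* were under a mean TPM of 1. Low levels limit *Epx*, *Prss34*, *Ms4a2*, *Fcer1a*, and *Cd200r3*, with 2 to 196 estimated reads per sample.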
